A study of Mus musculus with 12 samples.

Results

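The BCL2 family and its caspase arm were examined in the injured mouse retina as 9 genes, Bbc3, Bcl2l11, Hrk, Pmaip1, Bax, Bak1, Bcl2, Bcl2l1 and Casp9. They were chosen by gene symbol from what these proteins are known to do, with earlier results of these data known. No measured value served as the rule, and all 9 were found among the 25655 genes listed in each count table. The study tested whether fluvastatin, a statin that blocks HMG-CoA reductase, and matrix-bound nanovesicles (MBV), small vesicles embedded in the extracellular matrix, alter the response of the retina to optic nerve crush (ONC), an injury that severs the axons of retinal ganglion cells (RGCs). Whole retinae were taken 2 days after ONC and sequenced as bulk RNA, with 3 samples per group.

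All groups were C57BL/6J mice of 8 to 10 weeks whose optic nerve had been crushed. The control group received an intravitreal injection of PBS, the second received fluvastatin and the third received MBV. A group given both agents was labelled as well, but is not analysed here because the columns that hold it name no library. No uninjured retina was among the labelled groups, so every difference below is between treatments of an injured eye and none shows the effect of the crush itself. The study speaks of its RNA samples as biological replicates, but the labels do not tie the 3 samples of a group to separate mice, so p-values measure the spread between these samples. The PBS libraries carried numbers of one set and the fluvastatin and MBV libraries carried numbers of another. The library set and the treatment therefore cannot be told apart in either comparison with PBS, whereas MBV compared to fluvastatin lay within one set.

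Column totals ran from 21349516 to 30992040 counts per library. RGC markers were detected in every library, and the summed level of the 10 markers listed was 703 to 845 CPM (counts scaled to the same library size) with PBS, 789 to 1037 with fluvastatin and 742 to 891 with MBV. Some marker levels moved with treatment. Summed pigment epithelium and choroid markers ran from 98.6 to 146 CPM with PBS, 36.0 to 44.8 with fluvastatin and 27.1 to 50.3 with MBV, and 5 of the 6 were lower in each treated group. The 4 red blood cell markers summed to 4.98 to 5.91 CPM with PBS, 11.0 to 14.3 with fluvastatin and 10.4 to 14.2 with MBV. The 5 lens markers summed to 0.874 to 3.12 CPM with PBS, 2.12 to 13.0 with fluvastatin and 30.8 to 105 with MBV, and all 5 were higher with MBV compared to PBS. The 9 leukocyte and myeloid markers summed to 128 CPM in MBV replicate 3 and to no more than 38.9 CPM in any other library. Of these markers, Ly6c2 was at 0 in 1 PBS library and S100a8 in 1 fluvastatin library, and the general leukocyte gene Ptprc was at 0 in none. Some cell classes of the retina moved too. The 5 Müller glia markers summed to 2575 to 3243 CPM with PBS, 1335 to 2576 after fluvastatin and 1148 to 2509 after MBV, with 4 and 2 of them lower. Most of this sum was Glul, at a mean of 2332 CPM with PBS, and its groups overlapped. With DESeq2, 2 of the 5 were called with fluvastatin and 2 with MBV. The 8 photoreceptor markers summed to 41829 to 45205 CPM with PBS, 37148 to 39940 after fluvastatin (1 higher and 2 lower) and 28821 to 40773 after MBV (4 lower). With DESeq2, 5 of these 8 were called with each agent. The 6 amacrine and bipolar markers summed to 1517 to 1633 CPM with PBS, 1516 to 1582 with fluvastatin and 1524 to 1579 with MBV. Of these 6, 1 was higher and 1 lower with each agent. The 5 microglia markers (1 lower with each agent) summed to 50.4 to 59.1, 43.6 to 51.9 and 47.1 to 53.3 CPM. By the test described below, 9.36% of all genes were higher and 10.2% lower with fluvastatin, and 12% and 14.1% with MBV. The part of these tissues and cells in the changes of the 9 genes was not tested. In bulk tissue, fewer cells of a type and less RNA per cell cannot be told apart.

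The BCL2 family sets the threshold for the mitochondrial route of cell death. BH3-only proteins sense damage and bind the anti-apoptotic members BCL2 and BCL-xL, which leaves the effectors BAX and BAK free to open the outer mitochondrial membrane. Cytochrome c then leaves the mitochondrion and assembles with APAF1 into the apoptosome, on which the initiator caspase 9 is activated. In RGCs, axon injury is known to engage this route through BAX. Transcript levels alone do not report whether these proteins were active.

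Upstream sequence is shown for 4 members that moved in different directions below, the anti-apoptotic pair Bcl2 and Bcl2l1 and the BH3-only genes Hrk and Bcl2l11. The letters come from the RefSeq table of start sites (GRCm38.p6), were cut before the first base that a GENCODE transcript of the gene has in an exon, and were placed in GRCm39 by an exact match. They read 5′ to 3′ on the strand of the gene, and capitals mark the GC box, GGGCGG on either strand. The Hrk stretch lies inside the annotated span of the gene, since the RefSeq start used is 5116 bases downstream of the first start in the deposited files.

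Bcl2 (GRCm39 chr1:106642061-106642270, minus strand): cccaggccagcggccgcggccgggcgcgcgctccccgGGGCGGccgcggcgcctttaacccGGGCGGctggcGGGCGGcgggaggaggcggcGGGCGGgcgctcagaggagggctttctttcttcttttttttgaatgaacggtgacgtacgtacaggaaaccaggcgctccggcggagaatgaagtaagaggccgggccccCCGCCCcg
Bcl2l1 (GRCm39 chr2:152673656-152673898, minus strand): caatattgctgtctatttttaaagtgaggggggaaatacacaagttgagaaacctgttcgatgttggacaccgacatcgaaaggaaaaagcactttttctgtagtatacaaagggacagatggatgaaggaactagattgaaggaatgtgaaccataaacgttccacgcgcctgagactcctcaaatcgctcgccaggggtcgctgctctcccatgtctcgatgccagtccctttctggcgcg
Hrk (GRCm39 chr5:118307579-118307777, plus strand): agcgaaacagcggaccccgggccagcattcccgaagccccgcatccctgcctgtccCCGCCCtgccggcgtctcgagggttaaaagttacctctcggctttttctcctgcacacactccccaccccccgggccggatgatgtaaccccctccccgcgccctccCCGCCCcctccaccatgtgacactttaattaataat
Bcl2l11 (GRCm39 chr2:127967708-127967957, plus strand): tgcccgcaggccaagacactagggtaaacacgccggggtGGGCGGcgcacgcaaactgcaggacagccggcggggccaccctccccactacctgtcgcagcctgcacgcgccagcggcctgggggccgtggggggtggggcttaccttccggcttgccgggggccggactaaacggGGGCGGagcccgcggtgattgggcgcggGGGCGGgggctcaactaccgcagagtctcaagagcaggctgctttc

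The Bcl2 stretch held 5 GC boxes, that of Bcl2l11 held 3, that of Hrk held 2 and that of Bcl2l1 held none. Their G and C content was 72.4%, 72.0%, 63.3% and 47.3%, in the same order, beside a median of 52.4% over all RefSeq windows of 250 bases. Over full windows of 250 bases, 9 of the 13 start sites of 8 members held a GC box, beside 32.7% of 32851 windows of the same length. Several of those sites belong to the same gene and some of their windows overlap. Pmaip1 was left out of these windows, so the motif counts of the members do not cover it. The letters of a CRE (TGACGTCA, 1.55% of all windows), an AP-1 site (TGANTCA, 6.75%) and a TATA box (TATAAA, 12.4%) were in none of the 13 windows, and those of an E-box (CACGTG, 6.02%) were in 2. These motifs were searched on both strands, and a match is a string of letters, not a bound site.

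In PBS-treated retinae the members differed widely in abundance. Per exon length, the highest was Bcl2l1 at 65.8 ± 1.71 TPM (count per base of annotated exon, scaled to the same sum in each library; SD, n = 3), followed by Bax at 41.3 ± 2.77. The length merges the exons of all annotated transcripts of a gene, from 1856 bases for Bax to 10112 for Bcl2l11. The order of the genes therefore also depends on the annotation, which the SDs and ranges do not cover. Bcl2 (22.1 ± 0.799), Bak1 (21.1 ± 2.05) and Casp9 (20.6 ± 0.631) came next with ranges that overlapped, and Bcl2l11 (19.0 ± 0.434) overlapped Bak1 but neither Bcl2 nor Casp9. Hrk (12.7 ± 0.235), Bbc3 (5.20 ± 1.09) and Pmaip1 (0.927 ± 0.202) were the least abundant, and their ranges were apart from each other. Later levels are in CPM, which compare a gene between libraries but not with another gene.

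Compared to PBS, Hrk, Bak1 and Bcl2l1 were higher and Bcl2 was lower in fluvastatin-treated retinae. In MBV-treated retinae Hrk, Bak1 and Bcl2l1 were higher, and Bcl2 and Bcl2l11 were lower. These 2 comparisons share the PBS samples and are therefore not independent of each other. Bbc3, Pmaip1, Bax and Casp9 did not pass the test in any comparison. A gene was called when its adjusted p (edgeR quasi-likelihood test, Benjamini-Hochberg over all genes) was under 0.05. With fluvastatin 4 of 9 members were called beside 19.6% of all genes tested. Higher calls were 3 of 9 beside 9.36% of genes, and lower calls were 1 of 9 beside 10.2%. With MBV 5 of 9 members were called beside 26.1%. Here 3 of 9 rose beside 12% of genes, and 2 of 9 fell beside 14.1%. The median log2 fold change of the members was 0.22 with fluvastatin and 0.23 with MBV, beside −0.01 and 0.01 over all genes. With 9 members these shares are a description only. The groups did not overlap for 5 of 9 members with fluvastatin and 7 of 9 with MBV, beside 36.6% and 41.3% of all genes.

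**Figure D1:**
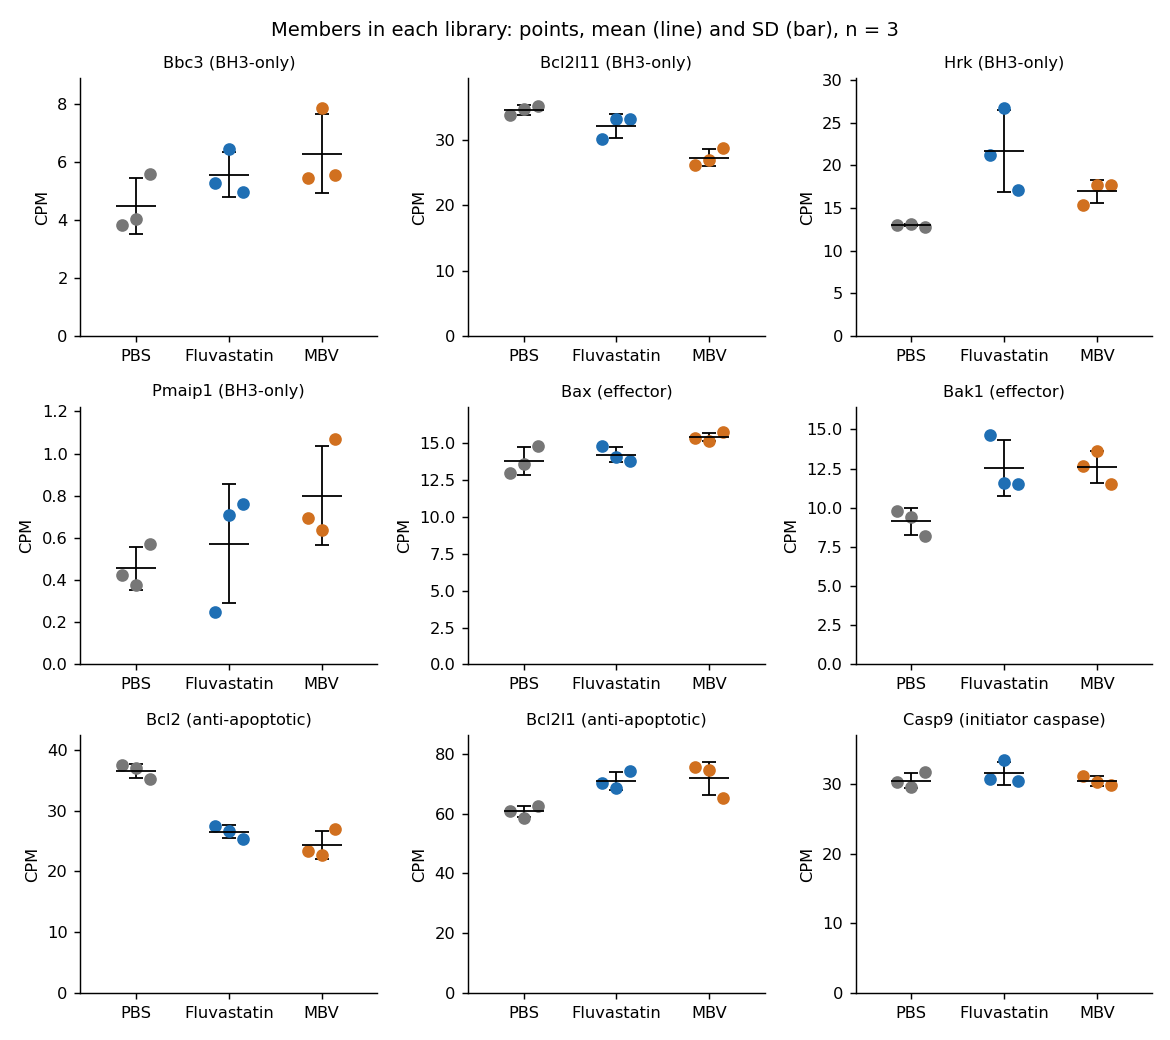
CPM of the 9 members (y axis, from 0) in each library (points) of the PBS, fluvastatin and MBV groups, with the group mean (line) and SD (bar), n = 3. Bcl2 sat between 35.2 and 37.4 CPM with PBS and at most at 27.5 CPM in the 6 treated libraries, whereas Hrk lay between 12.8 and 13.2 CPM with PBS and higher in every treated library.

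Hrk encodes Harakiri, a BH3-only protein that is restricted largely to neurons and binds BCL2 and BCL-xL. It lies on chr5:118302713-118327543 (plus strand, GRCm39) and no other annotated gene overlaps it. Hrk was at 13.1, 13.2 and 12.8 CPM in the 3 PBS libraries, 21.2, 26.8 and 17.2 CPM with fluvastatin, and 15.4, 17.7 and 17.8 CPM with MBV. All 6 treated libraries were above all 3 PBS libraries, and the fluvastatin libraries were the most spread. Hrk rose with fluvastatin by 0.74 ± 0.135 on the log2 scale (SE; 1.67-fold, 95% CI 1.36 to 2.05; adjusted p = 0.00487), the largest change of a called member in either comparison with PBS. With MBV it rose by 0.37 ± 0.0766 (1.29-fold, CI 1.15 to 1.46; adjusted p = 0.00823). When all 9 libraries were fitted together, the MBV change was 0.38 with an adjusted p of 0.0557. Some RGC markers were called as well. Of 10, 4 were higher with fluvastatin (Thy1, Nefh, Sncg and Tubb3), beside 9.36% of all genes. With MBV 2 were higher (Nefh and Tubb3), beside 12%, and 1 was lower (Isl1), beside 14.1%. The MBV calls of these markers were near the 26.1% of all genes called with MBV. Set against Rbpms, an RNA-binding protein that marks RGCs, the Hrk count was 0.667 to 0.754 of the Rbpms count with PBS, 0.769 to 1.14 with fluvastatin and 0.732 to 0.884 with MBV. Here the MBV libraries overlapped the PBS range and the fluvastatin libraries lay above it. Relative to Thy1 the groups overlapped, at 0.117 to 0.146, 0.124 to 0.183 and 0.132 to 0.148. Other markers were not used as a reference. Of the 10 markers, Nefh rose more than Hrk in both comparisons with PBS (2.10-fold with fluvastatin and 1.92-fold with MBV), and no other did. The part of the RGC markers in the Hrk change was not tested.

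Bcl2l11 encodes BIM, a BH3-only protein that binds every anti-apoptotic BCL2 protein and can activate BAX directly. The gene lies on chr2:127967958-128004467 (plus strand). PBS libraries held 33.7, 34.8 and 35.2 CPM, fluvastatin libraries 30.1, 33.1 and 33.2 CPM, and MBV libraries 26.2, 26.9 and 28.7 CPM. The 3 groups did not overlap, in the order PBS, fluvastatin, MBV. Bcl2l11 fell with MBV by 0.35 ± 0.0557 on the log2 scale (0.783-fold, CI 0.718 to 0.855; adjusted p = 0.00245), whereas the fluvastatin change of −0.11 ± 0.0586 did not pass (adjusted p = 0.238). MBV compared to fluvastatin gave −0.24 ± 0.0676 with an adjusted p of 0.312, so a difference between the agents was not shown. Annotated noncoding genes on the other strand and a predicted gene on the same strand overlap Bcl2l11, and reads of such genes cannot be separated without strand.

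Bbc3, which encodes PUMA, and Pmaip1, which encodes NOXA, are BH3-only genes that p53 can induce. Bbc3 was at 3.83, 4.03 and 5.58 CPM with PBS, 5.27, 6.43 and 4.96 CPM with fluvastatin, and 5.44, 7.86 and 5.56 CPM with MBV. PBS replicate 3 was as high as several treated libraries, and the groups overlapped. Its log2 fold changes were 0.32 ± 0.170 with fluvastatin (CI −0.06 to 0.69; adjusted p = 0.23) and 0.48 ± 0.194 with MBV (CI 0.04 to 0.92; adjusted p = 0.102). Without PBS replicate 3 the MBV change of Bbc3 was 0.66 with an adjusted p of 0.0421, and without MBV replicate 3 it was 0.56 with an adjusted p of 0.0487. Pmaip1 was near the limit of this depth, with counts of 13, 11 and 15 after PBS, 6, 19 and 18 after fluvastatin, and 19, 14 and 25 after MBV. Pooled over a group and scaled to library size, these were 0.451, 0.576 and 0.799 CPM, with exact Poisson 95% intervals of 0.321 to 0.617, 0.417 to 0.776 and 0.606 to 1.03 that cover counting error only. The MBV libraries did not overlap the PBS libraries in CPM, and the intervals of these groups overlapped narrowly. Fitted log2 changes of Pmaip1 were 0.34 with fluvastatin (CI −0.63 to 1.31) and 0.80 with MBV (CI 0.02 to 1.59; adjusted p = 0.122), so changes of a size that other members showed were not detectable for this gene.

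Of the effectors, Bak1 passed the test and Bax did not. Bak1, which encodes BAK, was at 9.81, 9.41 and 8.17 CPM with PBS, 14.6, 11.6 and 11.5 CPM with fluvastatin, and 12.7, 13.6 and 11.5 CPM with MBV. Every treated library exceeded every PBS library. Bak1 rose by 0.46 ± 0.119 with fluvastatin (1.37-fold, CI 1.14 to 1.65; adjusted p = 0.0232) and by 0.45 ± 0.0999 with MBV (1.37-fold, CI 1.17 to 1.60; adjusted p = 0.0105). The fluvastatin call was lost without PBS replicate 1 (0.51, adjusted p = 0.0502) and without PBS replicate 3 (0.39, adjusted p = 0.0599). Bak1 lies on chr17:27238784-27247983 (minus strand) and overlaps Ggnbp1 on the other strand, which held 10 to 27 counts per library where Bak1 held 215 to 355. Another protein-coding gene on that strand, Gm50253, overlaps Bak1 as well, and its counts are not given here. Bax, the effector that RGC death after axon injury is known to depend on, was at 13.0, 13.6 and 14.9 CPM with PBS, 14.8, 14.1 and 13.8 CPM with fluvastatin, and 15.4, 15.2 and 15.7 CPM with MBV. The fluvastatin libraries lay within the PBS range and the MBV libraries lay just above it. Its log2 change was 0.05 with fluvastatin (CI −0.13 to 0.22) and 0.15 with MBV (CI −0.01 to 0.32; adjusted p = 0.162), so a rise of Bax of more than 1.17-fold with fluvastatin or 1.25-fold with MBV lay outside the 95% intervals.

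The anti-apoptotic pair moved in opposite directions. Bcl2 was at 37.4, 37.0 and 35.2 CPM with PBS, 27.5, 26.6 and 25.4 CPM with fluvastatin, and 23.4, 22.7 and 27.0 CPM with MBV. No treated library reached the lowest PBS library. Bcl2 fell by 0.47 ± 0.0582 on the log2 scale with fluvastatin (0.724-fold, CI 0.662 to 0.792; adjusted p = 0.00107) and by 0.60 ± 0.0724 with MBV (0.662-fold, CI 0.591 to 0.741; adjusted p = 0.000869). It ranked 168 of 18818 genes by p with fluvastatin and 347 of 18897 with MBV, ahead of the other 8 members in both. Bcl2 lies on chr1:106465908-106642004 (minus strand). The annotated genes Mir3473f and Gm37053 on the same strand and noncoding genes on the other strand overlap it, and their reads cannot all be separated. Bcl2l1 encodes BCL-xL, the main survival member of many neurons, and its short splice form encodes a protein with the opposite action. Counts per gene do not separate these forms. Bcl2l1 was at 61.0, 58.7 and 62.6 CPM with PBS, 70.3, 68.5 and 74.2 CPM with fluvastatin, and 75.6, 74.5 and 65.3 CPM with MBV, again without overlap. It rose by 0.22 ± 0.0513 with fluvastatin (1.17-fold, CI 1.08 to 1.26; adjusted p = 0.0135) and by 0.23 ± 0.0627 with MBV (1.17-fold, CI 1.06 to 1.30; adjusted p = 0.0253). This was the smallest called change and the least stable, since leaving out 1 library ended the fluvastatin call in 3 of 6 cases (without fluvastatin replicate 3, PBS replicate 1 or PBS replicate 2; adjusted p 0.0506 to 0.0624) and the MBV call in 4 of 6 (without MBV replicate 1 or 2, or PBS replicate 1 or 2; adjusted p 0.0728 to 0.0983). Bcl2l1 lies on chr2:152622588-152673648 (minus strand), and a noncoding gene on the other strand overlaps it.

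Casp9, the initiator caspase of the apoptosome, did not pass the test in any comparison. It was at 30.3, 29.6 and 31.7 CPM with PBS, 30.8, 33.5 and 30.4 CPM with fluvastatin, and 31.2, 30.3 and 29.9 CPM with MBV. All groups overlapped. Its log2 change was 0.05 with fluvastatin (CI −0.09 to 0.18) and −0.01 with MBV (CI −0.13 to 0.11), so changes beyond 1.13-fold with fluvastatin and 1.08-fold with MBV lay outside the intervals on the higher side.

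**Figure D2:**
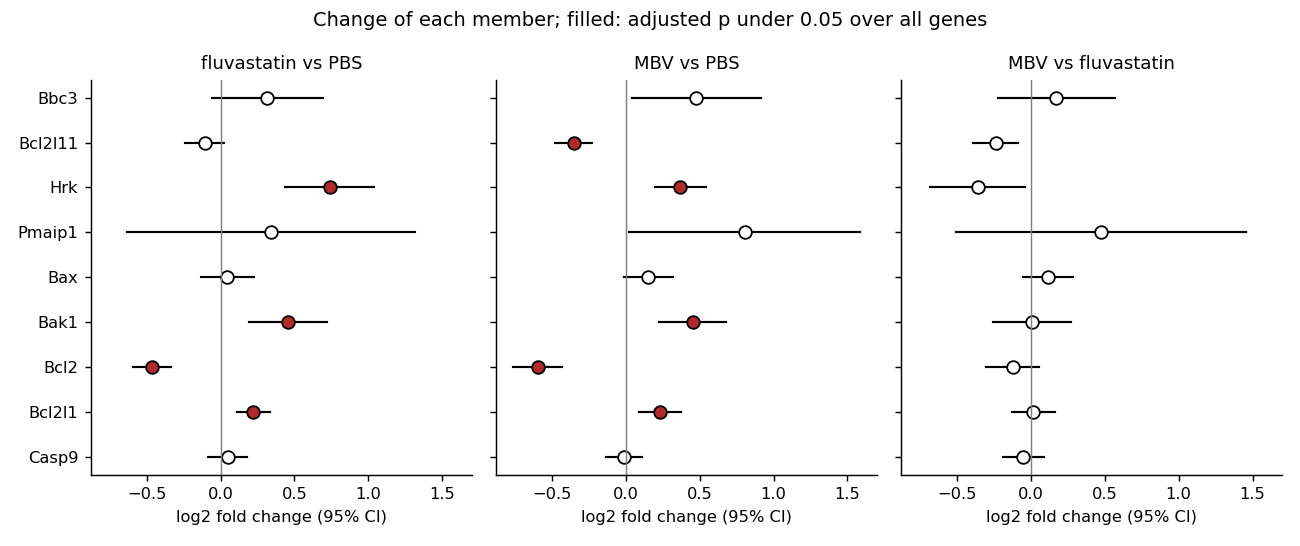
Log2 fold change (x axis) of each member (y axis) with its 95% confidence interval in the 3 comparisons; filled points had an adjusted p under 0.05. Hrk, Bak1 and Bcl2l1 lie to the right of 0 and Bcl2 to the left in both comparisons with PBS, Bcl2l11 is filled with MBV only, and no point is filled for MBV compared to fluvastatin.

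The agents were next compared with each other. None of the 9 members was called for MBV compared to fluvastatin (edgeR, and none with DESeq2), beside 0.0588% of all genes, of which 0.0267% were higher and 0.032% lower. At an unadjusted p under 0.05 there were 2 members, Bcl2l11 and Hrk, beside 10.7% of all genes. Both were lower with MBV, Hrk by 0.36 ± 0.144 on the log2 scale with an adjusted p of 0.429. The groups did not overlap for 2 of 9 members, Bcl2l11 and Bax, beside 16.4% of genes. For Bak1 the interval of the difference ran from 0.837-fold to 1.21-fold, for Bcl2l1 from 0.914-fold to 1.12-fold, for Bcl2 from 0.813-fold to 1.04-fold and for Casp9 from 0.876-fold to 1.06-fold. For Pmaip1 it was far wider, from 0.704-fold to 2.74-fold.

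Ratios of raw counts within a library do not depend on how the libraries are scaled. They carry the exon lengths of both genes, so they compare libraries and not the abundance of one gene with another. Per exon length, Bax was above Bcl2 with PBS, at 41.3 and 22.1 TPM. The count ratio of Bax to Bcl2 was 0.346, 0.367 and 0.422 with PBS, 0.539, 0.529 and 0.544 with fluvastatin, and 0.659, 0.667 and 0.583 with MBV. The 3 groups did not overlap, although Bax itself was not called. Bak1 to Bcl2 had a mean of 0.249 ± 0.0157 (SD, n = 3) in the PBS group, 0.473 ± 0.0515 after fluvastatin and 0.523 ± 0.0870 after MBV. For Hrk to Bcl2 the means were 0.356 ± 0.00787, 0.818 ± 0.171 and 0.699 ± 0.0698. Within the anti-apoptotic pair, Bcl2 to Bcl2l1 was 0.602 ± 0.0354 with PBS, 0.374 ± 0.0273 with fluvastatin and 0.342 ± 0.0613 with MBV. In these 4 ratios no treated library overlapped a PBS library. All 4 hold Bcl2, which did not overlap PBS by itself, so they are not results apart from the change of Bcl2. No share over ratios of other gene pairs was computed, and an exact permutation test of 3 against 3 cannot give a two-sided p below 0.1. For Bax to Bcl2l1, which ran from 0.213 to 0.237 with PBS, the MBV libraries overlapped that range (0.203 to 0.241) and the fluvastatin libraries lay just below it (0.186 to 0.211). Hrk to Bcl2l1 ran from 0.205 to 0.224 with PBS. The MBV libraries overlapped that range (0.203 to 0.272), and the fluvastatin libraries lay above it (0.232 to 0.391).

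**Figure D3:**
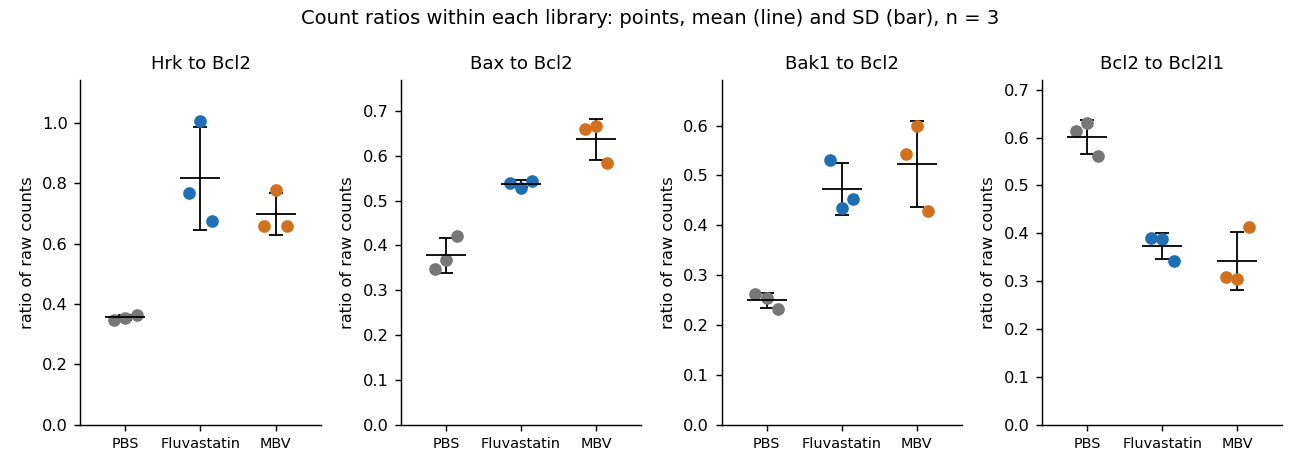
Ratio of raw counts (y axis, from 0) of Hrk, Bax and Bak1 to Bcl2 and of Bcl2 to Bcl2l1 in each library (points), with the mean (line) and SD (bar) of each group, n = 3. The first 3 ratios are higher and the fourth is lower in all 6 treated libraries than in any PBS library, and Bax to Bcl2 rises from a mean of 0.378 with PBS to 0.537 with fluvastatin and 0.636 with MBV. Each ratio holds Bcl2, whose own level did not overlap PBS in any treated library. The counts are not corrected for exon length, so a ratio does not give the abundance of one gene relative to the other.

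Of 67 other genes listed around this pathway, 63 could be tested. With fluvastatin 5 were higher and 6 lower, and with MBV 8 were higher and 9 lower, with a median log2 change of 0.03 and 0.11. These are 11 and 17 of 63, near the 19.6% and 26.1% of all genes called. None was called for MBV compared to fluvastatin (edgeR, and none with DESeq2), and 7 had an unadjusted p under 0.05. Among the 6 other anti-apoptotic proteins 1 was called, Mcl1, a short-lived BCL2 relative, which rose by 0.31 ± 0.0862 with MBV (adjusted p = 0.0283), and Bcl2l2, the highest of the list in CPM, did not pass in any comparison (0.14 with fluvastatin and 0.04 with MBV). Bcl2l10 was at the threshold with MBV, with a log2 change of 0.67 and an adjusted p of 0.0511 with edgeR and 0.0472 with DESeq2. Of the 6 other BH3-only genes, Bmf, whose product senses cytoskeletal damage, rose by 0.35 ± 0.108 with fluvastatin (adjusted p = 0.0459) and by 0.74 ± 0.143 with MBV (adjusted p = 0.00577). Bmf was at 16.4, 18.0 and 22.5 CPM with PBS, 25.9, 23.7 and 22.8 CPM with fluvastatin, and 30.4, 26.9 and 38.2 CPM with MBV. These groups did not overlap, although the gap between PBS and fluvastatin was narrow. Bnip3l, a receptor for the removal of mitochondria by autophagy, fell by 0.24 with fluvastatin and by 0.31 with MBV, and its relative Bnip3 fell by 0.25 with MBV. In the remaining BCL2-like list, Bcl2l12 was called higher with MBV (0.89, adjusted p = 0.0489) from a level of 0.613 CPM with PBS, but not with DESeq2 (adjusted p = 0.101), and Bcl2l13, the highest of the list in CPM, was not called.

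No other caspase was called in any comparison, by edgeR or by DESeq2. Of 9 listed, 8 were tested, and Casp14 had 0 counts in all 9 libraries, which allows up to 0.0968 to 0.141 CPM per library for 3 counts. At an unadjusted p under 0.05 there were 2 of 8 with fluvastatin, 1 with MBV and 1 between the agents, beside 32.5%, 37.8% and 10.7% of all genes. Apaf1, the scaffold of the apoptosome, was not called (0.03 with fluvastatin and 0.13 with MBV). In its list of 8, which also holds proteins released from mitochondria, Vdac2, a porin that holds BAK in the outer membrane, fell by 0.30 ± 0.0419 with fluvastatin (adjusted p = 0.00158) and by 0.36 ± 0.0424 with MBV (adjusted p = 0.000732). Cycs, which encodes cytochrome c, fell by 0.27 and Vdac1 by 0.13 with MBV.

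Xiap, which encodes a protein that inhibits caspases, was the one gene called among 5 inhibitor of apoptosis genes. It was at 793, 818 and 743 CPM with PBS, 618, 629 and 578 CPM with fluvastatin, and 497, 461 and 635 CPM with MBV. No treated library reached the PBS range. Xiap fell by 0.37 ± 0.0527 with fluvastatin (adjusted p = 0.00172) and by 0.57 ± 0.105 with MBV (adjusted p = 0.00459). On the death receptor arm of 10 genes tested, Tradd, an adaptor of the TNF receptor, rose by 0.74 ± 0.218 with fluvastatin (adjusted p = 0.038), Fadd, the adaptor that recruits caspase 8, fell by 0.29 with MBV (adjusted p = 0.0379), and Cflar, the highest of the list in CPM, was not called. With DESeq2 neither was called (adjusted p = 0.068 for Tradd and 0.107 for Fadd).

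**Figure D4:**
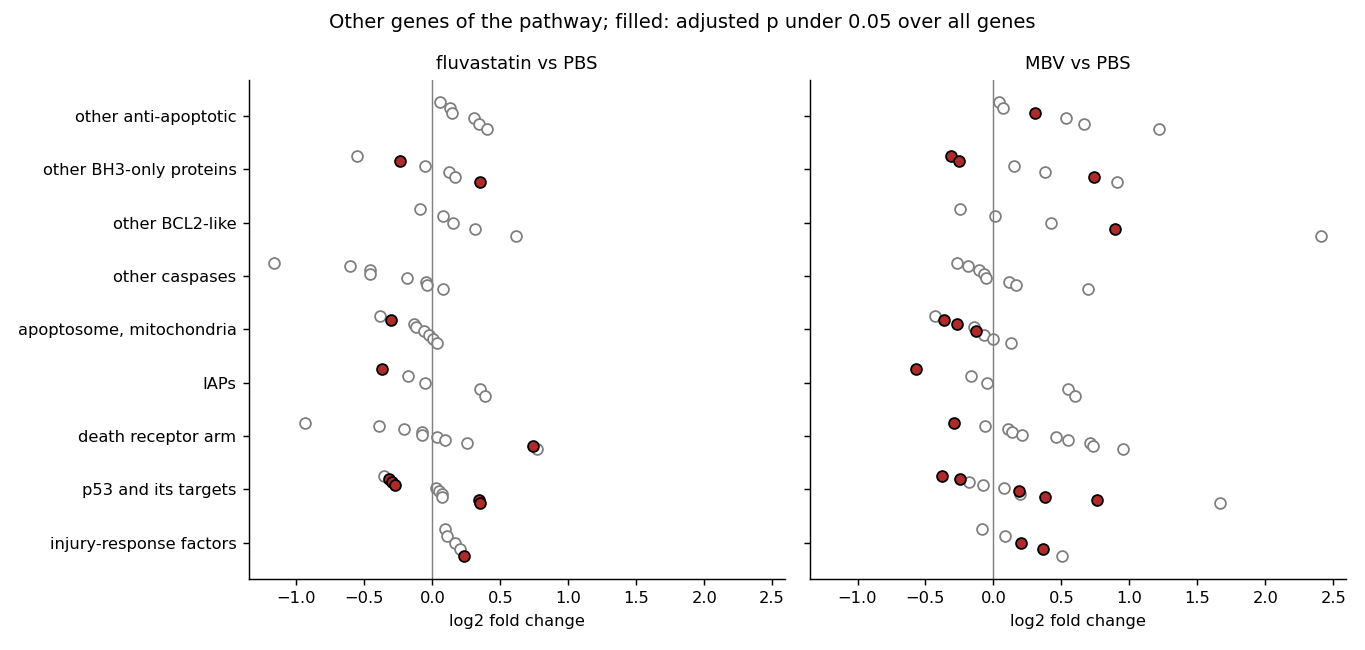
Log2 fold change (x axis) of the 63 other pathway genes tested, one point per gene, by list (y axis) for fluvastatin and MBV compared to PBS; filled points had an adjusted p under 0.05. Filled points lie on both sides of 0 in the p53 list, and no caspase is filled in either panel.

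Among p53 and its targets the calls went both ways. Trp53 rose by 0.35 ± 0.0971 with fluvastatin (adjusted p = 0.0283) and by 0.38 ± 0.108 with MBV (adjusted p = 0.0315), and Cdkn1a, which encodes the cell cycle inhibitor p21, rose by 0.34 (adjusted p = 0.045) and 0.76 (adjusted p = 0.00545). The fluvastatin call of Cdkn1a was not made with DESeq2 (adjusted p = 0.0571). Cdkn1a was at 7.83, 8.32 and 9.84 CPM with PBS, 10.6, 11.6 and 10.7 CPM with fluvastatin, and 13.0, 18.3 and 13.1 CPM with MBV. Ccng1, the highest of the list in CPM, fell by 0.32 with fluvastatin and by 0.38 with MBV, and Sesn1 fell by 0.30 and 0.25. Trp53inp1 fell by 0.27 with fluvastatin, and Zmat3 rose by 0.19 with MBV. In all, 2 of 10 were higher and 3 lower with fluvastatin, beside 9.36% and 10.2% of all genes, and 3 were higher and 2 lower with MBV, beside 12% and 14.1%. Of 5 tested transcription factors of the injury response that can act on BH3-only genes, Atf4, the effector of the integrated stress response, rose by 0.24 ± 0.0400 with fluvastatin (adjusted p = 0.00359) and by 0.36 ± 0.0634 with MBV (adjusted p = 0.00376). Foxo3 rose by 0.20 ± 0.0373 with MBV (adjusted p = 0.00475). Jun, a factor linked to BH3-only genes after axon injury, was not called, with log2 changes of 0.16 ± 0.125 and 0.09 ± 0.129.

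The profile of each called member over the 9 libraries was compared with that of 13971 genes of at least 1 CPM, by Pearson's r of log2(CPM + 0.5). The values describe libraries that share group, library set and scaling, and carry no test. Bcl2 was most like Acadsb (0.990), Car2 (0.989) and Hfe (0.989), and Bcl2l11 was most like Aimp1 (0.984), Lxn (0.983) and Hagh (0.981). Hrk was most like Pnkd (0.965), Ybx1 (0.964) and Pde4dip (0.960). Nearest to Bak1 were Adam1a (0.987), Prdm2 (0.971) and Gmeb1 (0.970), and nearest to Bcl2l1 were Ap3b2 (0.985), Sfxn3 (0.962) and Cdk6 (0.961). No member was among the 3 nearest genes of another.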

How the data were processed

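Bulk RNA-seq libraries of whole retinae were made with the TruSeq Total RNA kit and sequenced as paired reads by the authors. The deposited values used here are raw counts per gene, which the authors made with CLC Genomics Workbench on GRCm39. The annotation release and strand setting are not given in the sources used here. The files used were the 3, out of 4 deposited, whose columns name their libraries. The remaining file, of the combined treatment, has 6 count columns that name no library, and these were not used. Fold change and p-value columns of the authors' own comparisons were not used either.

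Counts of the 9 named libraries were scaled by TMM factors and tested with the edgeR quasi-likelihood test (edgeR 4.0.16, R 4.3.3), 2 groups at a time, over all genes with a count in at least 1 library. The p-values were adjusted over all genes by Benjamini-Hochberg at 0.05. Standard errors came from the log2 fold change and its F statistic. Replicates per group were 3. TPM used, for each gene, the merged length of all exons annotated in GENCODE M39, and overlapping genes were taken from the same annotation. The fits were tested on simulated data. Alternatives were DESeq2 1.42.0, other scalings and filters, a joint fit, a replicate block and leaving out each library. Totals of 21349516 to 30992040 counts set the counting error.

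The members and lists were chosen with earlier results of these data known. All 9 members are named. Of each other list, genes called in a comparison, up to 6, and the gene with the highest mean CPM are named. Some of the genes this rule names are not reported here. Apaf1, Casp14, Jun and Bcl2l10, which fall outside this rule, were named after their values were seen. For each called member the 3 genes most like it are named.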

Additional observations from a re-analysis of the deposited data

How the results depend on the processing

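Each member was refitted under 13 alternatives per comparison. The 438 recomputed values were log2 changes of the members, counts of called members or genes, and mean levels with PBS. Of these, 401 kept their direction and their side of the threshold or, for counts and levels, stayed close to the main value. A further 21 lost a call or gave a much lower count, and 6 gained one or gave a much higher count. Another 10 uncalled changes near 0 took the other sign, and no called value changed direction. Hrk and Bcl2 with fluvastatin and Bcl2, Bcl2l11 and Bak1 with MBV were called under all 13. Leaving out 1 library gave 2 to 4 members called with fluvastatin, the lowest without PBS replicate 1, and 4 to 6 with MBV. Between the agents it was 0 throughout.

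The number of genes called overall depended on single libraries as well. For fluvastatin compared to PBS it was 3687, but 1726 without PBS replicate 1, 2113 without fluvastatin replicate 2 and 4402 without fluvastatin replicate 1. With MBV compared to PBS it was 4937, but 2711 without PBS replicate 1 and as many as 5664 when another library was left out. Between the agents it was 11, but 126 with DESeq2, 27 in the joint fit, 5 under each stricter filter, 0 to 197 when 1 library was left out (0 without MBV replicate 1, 2 without fluvastatin replicate 2 or 3, 22 without fluvastatin replicate 1, 197 without MBV replicate 3) and 0 with the replicate block. The cause was not tested.

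Samples with the same number did not consistently deviate together, with correlations of −0.528 to 0.256 over 11706 genes. The highest was between replicate 3 of fluvastatin and replicate 3 of PBS. With 3 samples per group the deviations depend on each other, so these values cannot settle whether the numbers pair the samples. With the replicate block, Bcl2l1 with MBV was 0.23 with an adjusted p of 0.0575, and no other call of a member changed. Other scalings moved the median of all genes by at most 0.0327 on the log2 scale. Comparisons with the combined treatment, and fits over all 4 groups, were not run.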
